A study of Mus musculus with 6 samples.

Results

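The 10 genes described here encode the receptor chains that T cells use to sense the common gamma chain cytokines (*Il2ra*, *Il2rb*, *Il2rg*, *Il4ra*, *Il7r*, *Il15ra* and *Il21r*), the kinase bound to the shared chain (*Jak3*) and a pair of feedback inhibitors (*Cish* and *Socs2*). They were taken by gene symbol from the 32285 genes in the deposited feature tables, and all 10 were found. Their UMIs, the barcoded molecules counted in each cell, were read in 4 single-cell RNA-sequencing (scRNAseq) libraries and, within tumors, in cells with at least 1 UMI of *Tcf7* and in cells with none. *Tcf7* encodes TCF1, a transcription factor that the study used together with PD-1 to mark stem-like CD8 T cells by flow cytometry. In its scRNAseq data of tumor cells, the study also named *Tcf7* and *Il7r* in the signature of its stem-like cluster. It listed *Tcf7* among its naïve-like markers as well. PD-1 was not used in the split here, so cells with a *Tcf7* UMI are not all stem-like cells.

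Mice carried CD8-Cre with a Rosa26Tomato reporter (control), or the same alleles with IFNgR1flox/flox (CD8-IFNγRKO), so that Cre and the reporter were present in both groups and the IFNγ receptor was removed in mature CD8 T cells of the second. All mice were engrafted with B16-OVA, a mouse melanoma line that makes ovalbumin. Tomato+ CD8 T cells were sorted at day 12 according to the series' design text, from the tumor and the draining lymph node (LN), with 3 mice pooled per genotype. The study's own text gives a range of harvest days that begins at day 12, without the day of each mouse. Each tissue and genotype gave 1 library, and TCR sequences of the 2 tumor samples gave clones. There is therefore no replicate of any group, no test was possible, and every interval below is an exact 95% interval that covers counting error alone and not the spread between mice. The mice were young adults of either sex, as the study's methods give them.

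Interleukin (IL)-2, IL-4, IL-7, IL-9, IL-15 and IL-21 all signal through the common gamma chain, the product of *Il2rg*, joined to chains that decide which cytokine is bound. The gamma chain carries JAK3 and its signaling partner carries JAK1, which for IL-2 and IL-15 is the beta chain they share, while their alpha chains bind the cytokine and carry no such kinase. These kinases activate STAT proteins that enter the nucleus. In CD8 T cells, IL-7 and its receptor are known for keeping naïve and memory cells alive, IL-15 for maintaining memory cells, IL-2 for expansion and effector function, and CISH and SOCS2 for damping the signal that induces them.

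Of the 10 genes, 8 had a promoter in the RefSeq table used (build GRCm38.p6, the build of mm10), and *Il2rb* and *Socs2* were not in it. A pair of motifs was searched on both strands, from 250 bases before to 50 bases after each annotated start. TTCNNNGAA is the gamma-activated site that STAT dimers bind, and GAAANNGAA is a core of the interferon-stimulated response element. They were held by 8.30% and 8.56% of the 32851 promoters of the table. *Jak3* is shown because it was the 1 member called between the genotypes in LN, *Il7r* because it had the highest ratio between tumor cells with and without *Tcf7*, and *Cish* because it holds 2 gamma-activated sites. Capitals mark the motif.
Jak3, chr8:71676133-71676382, plus strand, the 250 bases before the start: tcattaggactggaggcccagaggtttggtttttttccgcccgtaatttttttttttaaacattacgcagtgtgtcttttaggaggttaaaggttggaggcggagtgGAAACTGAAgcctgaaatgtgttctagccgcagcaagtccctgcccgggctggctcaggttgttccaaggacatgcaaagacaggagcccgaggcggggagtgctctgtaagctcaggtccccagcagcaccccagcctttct
Il7r, chr15:9529999-9530028, minus strand: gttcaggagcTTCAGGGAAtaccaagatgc
Cish, chr9:107296654-107296683, plus strand, across the start: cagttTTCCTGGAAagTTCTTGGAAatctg
The *Jak3* match began 143 bases before the start and the *Il7r* match 142 bases before the start that the promoter table uses, which lies inside the annotated *Il7r* locus and not at its end. Those of *Cish* began at the first and at position 12 of the transcript, counted from 1. *Il15ra* held a GAAANNGAA match 149 bases before the start of its first listed promoter and at position 31 of the transcript of its second, and neither motif was in the window of *Il2ra*, *Il2rg*, *Il4ra* or *Il21r*. A match describes letters in the reference and was not tested as a binding site.

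In the same annotation *Il4ra* (chr7:125552271-125579474) and *Il21r* (chr7:125603252-125634397) are neighbours, as are *Il2ra* (chr2:11642792-11693194) and *Il15ra* (chr2:11705172-11733985). *Jak3* (chr8:71676383-71690577) overlaps *Insl3* at its 3′ end, *Il2ra* overlaps the long noncoding RNA *Gm39760*, and *Socs2* (chr10:95383903-95417321) overlaps *Gm33230*. Reads from these overlaps could fit either gene, and the strands of the genes were not compared. *Insl3* itself had 6 and 3 UMIs in control and CD8-IFNγRKO LN, beside 2672 and 1671 of *Jak3*. *Il7r* (chr15:9506159-9529941), *Il2rb* (chr15:78479256-78511621), *Il2rg* (chrX:101264385-101268255) and *Cish* (chr9:107296659-107302784) overlap no other gene of the table.

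After quality filters, 6641 control LN, 6731 CD8-IFNγRKO LN, 7103 control tumor and 8636 CD8-IFNγRKO tumor cells were kept, with 28841136 to 93995655 UMIs per library and a median of 3863 to 9402.5 UMIs per cell. The CD8-IFNγRKO tumor library was the deepest. All 7 CD8 T cell markers were present in every library, at a summed 5358 to 8748 CPM (UMIs of a gene over all UMIs of the pooled cells, times 1000000). The other lists were low: *Cd4* was at 4.22 to 18.4 CPM, 4 B cell genes summed to 0.437 to 22.2, 8 myeloid genes to 2.51 to 21.6, 3 natural killer cell genes to 30.0 to 40.9 and 4 melanoma genes to 0.200 to 3.24 CPM, and *Foxp3* was at 0.606 to 1.97. Between 183 and 216 kept cells of a library had a barcode that also occurred in another library, and leaving them out left every count of called members as it was. *Ifngr1*, the gene flanked by loxP sites, was at 182 and 137 CPM in control and CD8-IFNγRKO LN, and at 718 and 237 CPM in control and CD8-IFNγRKO tumor. It was lower in the knockout in both tissues and far from absent, and the counts do not say which exons these molecules came from.

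*Il7r* and *Il4ra* were lower in tumor than in LN, whereas *Il2ra*, *Il2rb*, *Il15ra*, *Jak3* and *Cish* were higher, in both genotypes. Values are pooled CPM, and a member was called higher or lower past a 1.5-fold ratio (0.58 on the log2 scale) if it reached 10 CPM in either pool. *Il2rg*, the shared chain, was not called in either genotype, and *Il21r* was not called either. Of all genes counted, 26.4% were higher and 22.8% lower past 1.5-fold in control tumor (8222 genes), and 28.1% and 24.8% in CD8-IFNγRKO tumor (8285 genes), so large differences between the tissues were common. Of the 9 members counted, 5 were higher and 2 lower in each genotype, with a median log2 ratio of 1.20 in control and 1.60 in CD8-IFNγRKO, beside 0.04 and 0.05 over all genes.

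*Il7r*, the IL-7 receptor alpha chain, was at 352 CPM in control LN, 389 in CD8-IFNγRKO LN, 61.0 in control tumor and 47.5 in CD8-IFNγRKO tumor. Both tumor libraries were far below both LN libraries, by 5.76-fold in control (log2 ratio -2.53, interval -2.58 to -2.47) and 8.18-fold in CD8-IFNγRKO (-3.03, interval -3.08 to -2.98). *Il4ra*, which binds IL-4, was at 68.7, 74.4, 28.9 and 19.6 CPM in the same order. It was lower in tumor by 2.38-fold in control and 3.79-fold in CD8-IFNγRKO.

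*Il2rb*, the beta chain that IL-2 and IL-15 share, took the opposite course. It was at 157 CPM in control LN, 172 in CD8-IFNγRKO LN, 1119 in control tumor and 939 in CD8-IFNγRKO tumor. The tumor ratio was 7.13-fold in control (interval 6.92 to 7.35) and 5.47-fold in CD8-IFNγRKO (5.31 to 5.63). *Il2ra*, the alpha chain that gives high affinity for IL-2, was close to absent in LN, at 1.74 and 0.867 CPM from 52 and 25 UMIs. In tumors it reached 44.3 CPM in control and 57.5 CPM in CD8-IFNγRKO, and the ratio of tumor to LN was 25.5-fold (19.4 to 34.2) and 66.4-fold (44.9 to 103). The wide intervals come from the few LN UMIs. *Il15ra*, the private chain of IL-15 that also presents the cytokine to neighbouring cells, was low throughout, at 6.21 and 3.54 CPM in LN and 16.3 and 17.0 CPM in tumors.

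*Il2rg* was at 755 and 768 CPM in control and CD8-IFNγRKO LN, and at 709.6 and 549.8 CPM in control and CD8-IFNγRKO tumor. Its 4 libraries spanned the narrowest range of the 10 genes. *Il21r*, which binds IL-21, was at 158 and 167 CPM in LN, 235 CPM in control tumor and 143 CPM in CD8-IFNγRKO tumor. Its tumor ratio was 1.486-fold in control, just inside the limit, and its log2 ratio was -0.23 in CD8-IFNγRKO, so its position against LN had a different sign in the genotypes. *Jak3* was at 89.3 and 57.9 CPM in LN and 205 and 176 CPM in tumors, which was 2.30-fold higher in control tumor and 3.03-fold higher in CD8-IFNγRKO tumor. *Cish*, a STAT5-induced inhibitor, was at 5.04 and 6.94 CPM in LN and at 106 and 67.3 CPM in tumors, 20.9-fold and 9.71-fold higher. *Socs2* never reached 10 CPM. It had 9 and 4 UMIs in control and CD8-IFNγRKO LN and was at 6.45 and 7.42 CPM in control and CD8-IFNγRKO tumor.

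**Figure D1:**
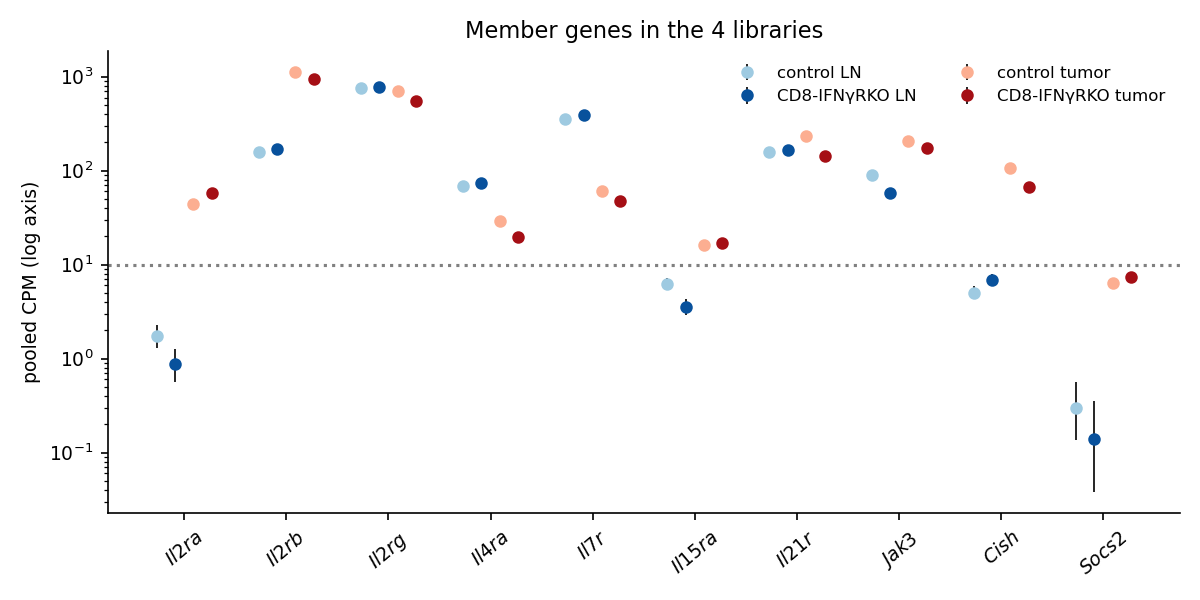
Pooled CPM (log axis) of the 10 genes in the 4 libraries, with exact Poisson 95% intervals and the 10 CPM limit dotted. The LN points lie above the tumor points for *Il7r* and *Il4ra* and below them for *Il2ra*, *Il2rb*, *Il15ra*, *Jak3*, *Cish* and *Socs2*, while *Il2rg* stays between 549.8 and 768 CPM.

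The share of cells with a UMI followed the pooled levels. To compare libraries of unequal depth, each cell was thinned to 1600 UMIs and shallower cells were left out (237 and 41 in control and CD8-IFNγRKO LN, 701 and 278 in control and CD8-IFNγRKO tumor). *Il7r* was then detected in 39.0% and 41.7% of control and CD8-IFNγRKO LN cells, and in 9.59% and 8.21% of tumor cells. *Il2rb* was detected in 17.5% and 19.8% of LN cells and in 80.5% and 73.7% of tumor cells. Receptors need their chains in the same cell. A UMI of both *Il2rb* and *Il2rg* was found in 11.9% and 13.6% of LN cells and 55.6% and 44.1% of tumor cells, whereas *Il7r* with *Il2rg* went the other way, with 27.1% and 30.0% in LN against 6.58% and 5.41% in tumors. All 3 chains of the high-affinity IL-2 receptor were seen together in 2.89% and 3.17% of tumor cells and in 3 and 1 cells of the LN libraries. *Il2rg* alone was detected in 69.2% and 70.9% of LN cells and 68.7% and 59.95% of tumor cells. Joint shares depend on such single shares, and whether chains occurred together more often than these give was not tested. Thinning also leaves chains unseen, so a joint share is not the share of cells with a receptor.

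Without thinning, tumor shares were 29.3% and 27.5% for *Il7r* and 94.0% and 95.2% for *Il2rb*, so that the genotype order of *Il2rb* shares turned with depth. As background, 21 barcodes of the CD8-IFNγRKO LN library carried B cell or myeloid markers and no CD3 chain (median 2470 UMIs, the kept cells 3863). *Il7r*, *Il2rb* and *Jak3* had no UMI in these 21, which allows a share of up to 14.3%, while 14 had *Il2rg*, 11 had *Il21r* and 8 had *Il4ra*, receptor chains that B cells also express. The control LN library had 18 such barcodes (median 2441.5 UMIs), fewer than the 20 set as a minimum, of which 3 had *Jak3*, 1 *Il7r* and 0 *Il2rb*, the last of which allows a share of up to 16.7%. The tumor libraries had 5 and 3.

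In both tumors, cells with a *Tcf7* UMI carried more *Il7r* and *Il4ra*, and less *Il2rb*, than cells without it. *Tcf7* was detected in 372 of 7103 control tumor cells (5.24%) and 837 of 8636 CD8-IFNγRKO tumor cells (9.69%), beside 85.1% and 84.8% of control and CD8-IFNγRKO LN cells. These shares are without thinning. In thinned cells they were 3.33% and 5.65% in control and CD8-IFNγRKO tumor and 58.2% and 57.0% in LN. Of all genes counted, 6.07% were higher and 6.47% lower past 1.5-fold in *Tcf7* UMI cells of control tumors (7776 genes), and 8.65% and 7.61% in CD8-IFNγRKO tumors (7861 genes). Of 9 members, 2 were higher and 1 lower in each tumor. The median log2 ratio of the members was -0.27 and -0.22 in control and CD8-IFNγRKO tumor, beside -0.03 and -0.04 over all genes.

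*Il7r* was at 192 CPM with and 54.7 CPM without a *Tcf7* UMI in control tumor, and at 197 and 37.8 CPM in CD8-IFNγRKO tumor. The difference was 3.51-fold (interval 3.20 to 3.85) and 5.22-fold (4.87 to 5.58), and the *Tcf7* UMI cells of both tumors were still below the LN libraries. *Il4ra* was at 65.2 and 27.1 CPM in control and 55.3 and 17.3 CPM in CD8-IFNγRKO, 2.40-fold and 3.20-fold higher with *Tcf7*, and the control *Tcf7* UMI cells came near the level of LN cells. *Il2rb* was at 733 and 1137 CPM in control (1.552-fold lower with *Tcf7*) and 642 and 958 CPM in CD8-IFNγRKO (1.493-fold lower), values that lie just outside and just inside the limit.

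*Il2ra* was at 38.4 CPM with and 44.6 CPM without a *Tcf7* UMI in control tumor (log2 ratio -0.21, interval -0.51 to 0.07), and at 30.0 and 59.3 CPM in CD8-IFNγRKO tumor (-0.98, interval -1.21 to -0.76). It was thus called lower in the CD8-IFNγRKO tumor, and the difference between the tumors was not tested. *Il2rg* was at 667 and 712 CPM in control and at 687 and 541 CPM in CD8-IFNγRKO, which was not past the limit in either. The log2 ratios of *Jak3* (-0.38 in control and -0.25 in CD8-IFNγRKO), *Cish* (-0.27 and -0.48), *Il15ra* (-0.45 and -0.22) and *Il21r* (-0.27 and 0.01) were also within 1.5-fold over all UMIs, though several of these passed it at equal depth, and *Socs2* had only 15 and 26 UMIs in the *Tcf7* UMI cells of control and CD8-IFNγRKO tumor.

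**Figure D2:**
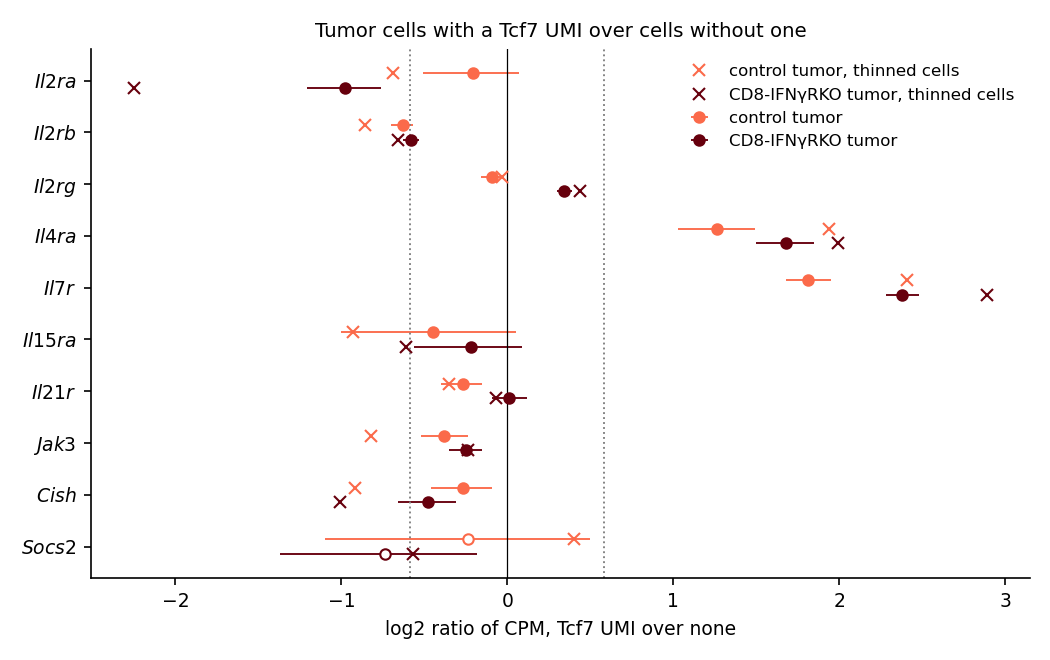
Log2 ratio of CPM between tumor cells with a *Tcf7* UMI and cells without it, with exact 95% intervals for all UMIs (circles, open below 10 CPM) and the value in cells thinned to 1600 UMIs (crosses). Dotted lines mark 1.5-fold. *Il7r* and *Il4ra* lie to the right in both tumors, and *Il2ra* and *Il2rb* to the left.

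Depth moved with this split. Tumor cells with a *Tcf7* UMI had medians of 4562.5 and 4521 UMIs in control and CD8-IFNγRKO, and cells without it 6394 and 9901. Within cells below 4000 UMIs, *Il7r* was at 422 CPM with and 88.4 CPM without *Tcf7* in control and at 419 and 85.4 CPM in CD8-IFNγRKO, so that *Tcf7* UMI cells of this range were at or slightly above the LN level. At 8000 UMIs or more the same values were 105 and 50.03 CPM in control and 102 and 36.6 CPM in CD8-IFNγRKO. *Il7r* in *Tcf7* UMI cells was therefore highest in shallow cells and lowest in deep cells, at almost equal levels in the genotypes in each range. *Il2ra* in *Tcf7* UMI cells went the other way, from 15.7 CPM below 4000 UMIs to 51.7 CPM at 8000 or more in control, and from 13.3 to 42.9 CPM in CD8-IFNγRKO. Without *Tcf7*, *Il2ra* went from 39.5 to 48.6 CPM in control and from 48.7 to 62.3 CPM in CD8-IFNγRKO. In deep control cells it was therefore slightly higher with *Tcf7* than without. *Il4ra* was also lowest in deep cells, with 153 and 75.9 CPM in shallow and 35.7 and 34.1 CPM in deep *Tcf7* UMI cells of control and CD8-IFNγRKO. *Il2rb* was lower with a *Tcf7* UMI in all 3 ranges of both tumors. The part of depth in these contrasts was not tested.

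**Figure D3:**
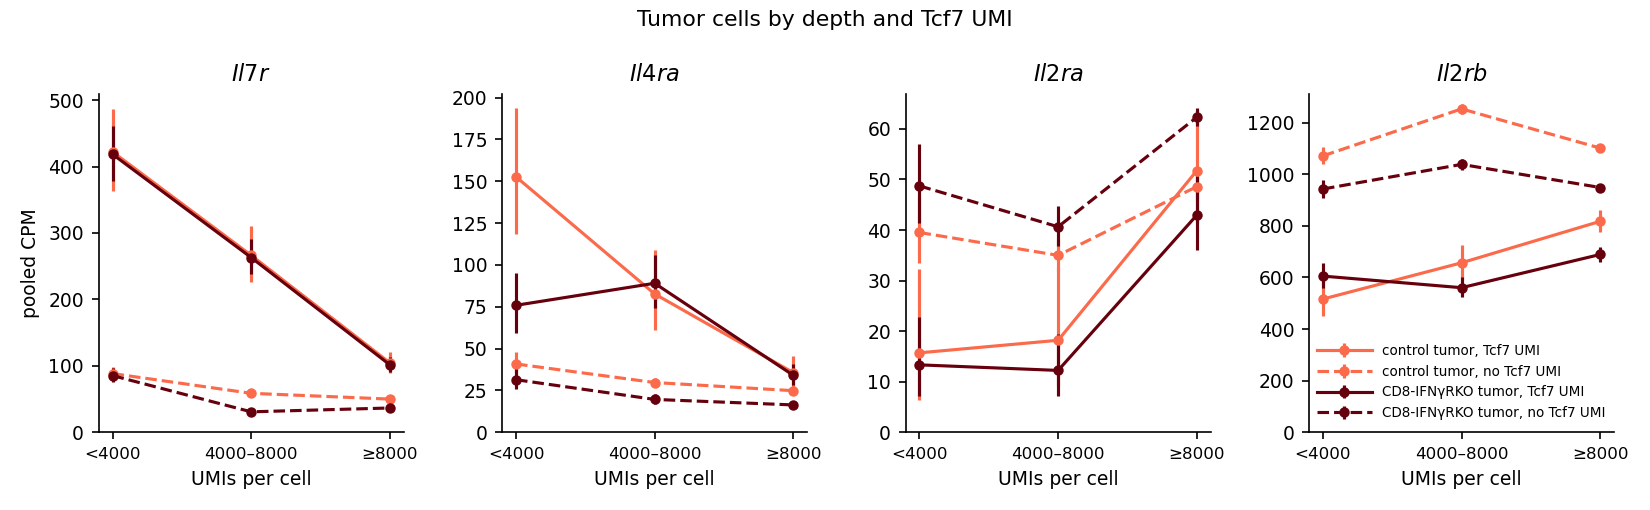
Pooled CPM of *Il7r*, *Il4ra*, *Il2ra* and *Il2rb* in tumor cells of 3 ranges of UMIs per cell, with a *Tcf7* UMI (solid) and without it (dashed), for each genotype, with exact Poisson 95% intervals. *Il7r* in *Tcf7* UMI cells declines from 422 and 419 CPM to 105 and 102 CPM in control and CD8-IFNγRKO, and *Il2rb* is lower with a *Tcf7* UMI throughout.

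Thinned to equal depth, where the *Tcf7* class was also read from the thinned UMIs, the contrast was larger. *Il7r* had log2 ratios of 2.41 and 2.89 in control and CD8-IFNγRKO tumor, *Il4ra* of 1.94 and 1.99, and *Il2ra* of -0.69 and -2.25. *Il2rb* was at -0.86 and -0.66. *Cish* (-0.92 and -1.01) and *Il15ra* (-0.93 and -0.61, from 3 and 9 UMIs with *Tcf7*) were then past 1.5-fold on the lower side in both tumors, as was *Jak3* in control (-0.82, beside -0.24 in CD8-IFNγRKO). More members were thus lower with *Tcf7* at equal depth than over all UMIs. The share of all genes past 1.5-fold in thinned cells is not given here, so this cannot be read as a trait of the members. The *Il2ra* values rest on 8 UMIs in the *Tcf7* UMI cells of each tumor, and with so few UMIs no order of the tumors can be read from them.

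*Jak3* was the 1 member called between the LN libraries, among those that reached 10 CPM. It was at 89.3 CPM in control (2672 UMIs) and 57.9 CPM in CD8-IFNγRKO (1671 UMIs), a 1.54-fold lower level (log2 ratio -0.62, interval -0.71 to -0.53). Of 7472 genes counted, 0.187% were higher and 0.308% lower past 1.5-fold, and *Jak3* was the 16th lowest ratio among them. Of the 6 members that reached 10 CPM, 0 were higher and 1 was lower, and the median was 0.10 beside 0.03 over all genes. The study itself found no transcript that differed between the genotypes in LN, using a Wilcoxon test on cells. That criterion differs from the 1.5-fold limit on pooled CPM used here.

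The receptor chains that reached 10 CPM in LN lay close to each other in the genotypes. The log2 ratios were 0.14 for *Il7r*, 0.13 for *Il2rb*, 0.12 for *Il4ra*, 0.08 for *Il21r* and 0.02 for *Il2rg*. The largest of these, *Il7r*, was 1.105-fold higher in CD8-IFNγRKO, with an interval of 1.08 to 1.13. The 4 members under 10 CPM were not called: the log2 ratio was -1.0 for *Il2ra* (interval -1.75 to -0.29), -0.81 for *Il15ra* (-1.18 to -0.46, from 102 and 186 UMIs), 0.46 for *Cish* (0.15 to 0.77) and -1.12 for *Socs2* (-3.27 to 0.72).

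The lower *Jak3* was seen in each class of thinned LN cells shown here. In cells with a *Tcf7* UMI it was at 96.5 CPM in control and 53.4 CPM in CD8-IFNγRKO (log2 ratio -0.85, interval -1.05 to -0.65), and in cells without it at 84.5 and 58.3 CPM (-0.54, -0.77 to -0.30). *Ccl5*, a chemokine of memory and effector cells, marked 420 control and 381 CD8-IFNγRKO cells, and *Jak3* was at 83.3 and 47.6 CPM in them and at 92.02 and 56.0 CPM in the rest. The widest contrast was in cells with a UMI of *Ifit3*, an interferon-induced gene, with 119 and 40.9 CPM (log2 ratio -1.54), but it rests on 35 and 15 UMIs and its interval, -2.52 to -0.63, takes in the value of the other cells. Over all thinned cells *Jak3* was detected in 13.4% of control and 8.36% of CD8-IFNγRKO LN cells. Thinning mixes the *Tcf7* and *Il7r* classes. A *Tcf7* UMI was in 85.1% and 84.8% of control and CD8-IFNγRKO LN cells before thinning and 58.2% and 57.0% after it. For *Il7r* the shares were 65.7% and 67.6% before and 39.0% and 41.7% after. A similar ratio with and without these UMIs therefore does not show that it holds across cell types.

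**Figure D4:**
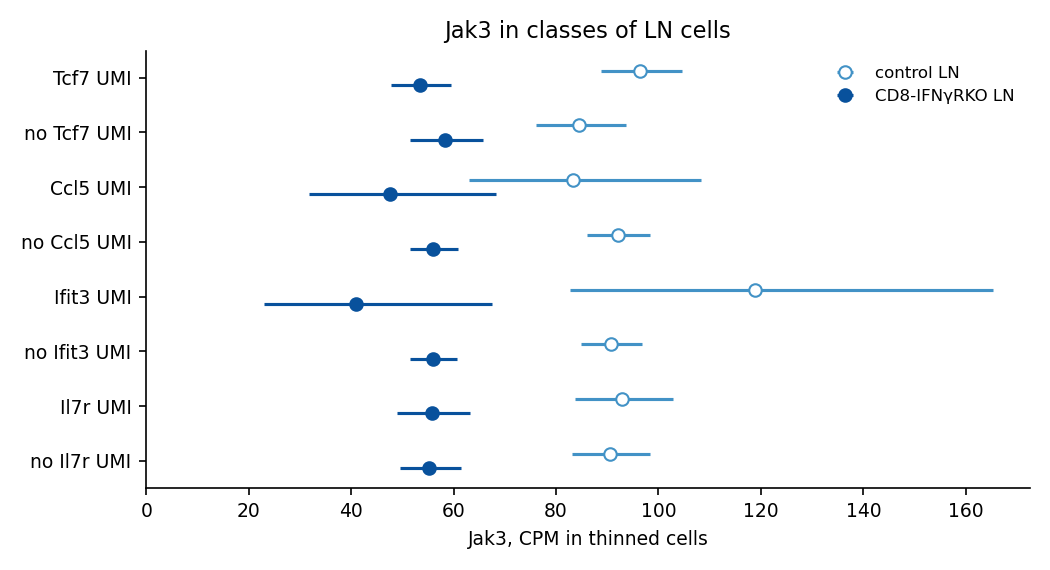
*Jak3* (CPM in LN cells thinned to 1600 UMIs) in cells with and without a UMI of *Tcf7*, *Ccl5*, *Ifit3* or *Il7r*, in control (open) and CD8-IFNγRKO (filled), with exact Poisson 95% intervals. The CD8-IFNγRKO value is below the control value in all 8 classes, and the widest intervals are those of the small *Ccl5* and *Ifit3* classes.

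In tumors, *Il21r* and *Cish* were lower past 1.5-fold in CD8-IFNγRKO, and most receptor chains lay below control by less than that. *Il21r* was at 235 CPM in control and 143 CPM in CD8-IFNγRKO, 1.65-fold lower (log2 ratio -0.72, interval -0.75 to -0.69). *Cish* was at 106 and 67.3 CPM, 1.57-fold lower (-0.65, -0.70 to -0.60), but in tumor cells with 4000 to 8000 UMIs its ratio was -0.47, within the limit, where that of *Il21r* was -0.62. Of 7722 genes counted, 5.5% were higher and 4.13% lower past 1.5-fold, beside 0 higher and 2 lower of 9 members. The median of the members was -0.36 beside 0.02 over all genes.

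Among the other chains, the log2 ratio was -0.56 for *Il4ra*, at 1.472-fold just inside the limit, -0.37 for *Il2rg*, -0.36 for *Il7r* and -0.25 for *Il2rb*. *Jak3*, the member called in LN, had a log2 ratio of -0.23 (interval -0.26 to -0.19) in tumor. *Il2ra* stood on the other side, 1.30-fold higher in CD8-IFNγRKO (log2 ratio 0.38, interval 0.31 to 0.44), and *Il15ra* had a ratio of 0.06 with an interval of -0.06 to 0.17. Some of these ratios depended on the cells taken. *Il7r* was at -0.14 without *Mki67* UMI cells, and *Il4ra* was at -0.16 and *Il2ra* at 0.11 in cells with 4000 to 8000 UMIs. *Il2ra* was also unevenly held: cells with 5 or more of its UMIs were 0.915% of control and 2.56% of CD8-IFNγRKO tumor cells, and they held 17.6% and 29.4% of its UMIs. These cells were deep, with medians of 20760 and 22032 UMIs. In thinned cells, *Il2ra* was detected in 5.50% of control and 7.02% of CD8-IFNγRKO tumor cells.

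The lower *Il21r* and *Cish* were seen in tumor cells with and without a UMI of *Mki67* or *Havcr2*. In thinned cells, *Il21r* was at 255 and 145 CPM in control and CD8-IFNγRKO cells with a UMI of *Mki67*, a marker of dividing cells, and at 248 and 158 CPM in cells without it. It was at 254 and 150 CPM in cells with a UMI of *Havcr2*, which encodes the exhaustion marker TIM-3, and at 246 and 158 CPM in the others. *Cish* in the *Havcr2* classes was at 105 and 70.2 CPM with a UMI and at 119 and 73.5 CPM without it. In the *Mki67* classes *Cish* was at 90.0 and 66.0 CPM with a UMI (log2 ratio -0.45, interval -0.83 to -0.06, within the limit). Without an *Mki67* UMI it was at 117 and 74.1 CPM (-0.66). The log2 ratio was nearer 0 in the few cells with an *Ifit3* UMI, at -0.23 (interval -0.61 to 0.16) for *Il21r* and -0.32 (-0.86 to 0.22) for *Cish*. Cells without an *Ifit3* UMI were at -0.70 for *Il21r*, outside that interval, and at -0.68 for *Cish*, inside it. In single-cell clones, those whose TCR was seen in 1 cell, the log2 ratio was -0.22 (-0.70 to 0.27) and -0.58 (-1.59 to 0.46). Larger clones were at -0.74 for *Il21r*, just outside that interval, and at -0.60 for *Cish*, inside it. The differences between these classes were not tested. The shares of thinned cells with a UMI were 30.9% and 21.4% for *Il21r* and 15.7% and 10.2% for *Cish*.

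Split by *Tcf7*, *Il7r* and *Il2rg* were at nearly equal levels in the genotypes in *Tcf7* UMI cells and lower in CD8-IFNγRKO in the other cells. In those other cells both were within 1.5-fold with all depths pooled, but *Il7r* was past it at 4000 to 8000 UMIs. With a *Tcf7* UMI, 1 of 9 members was called lower, *Cish* (88.2 CPM in control and 49.0 CPM in CD8-IFNγRKO, log2 ratio -0.85, interval -1.10 to -0.59), and none was called higher. In this class 4.96% of 7807 genes were higher and 3.47% lower past 1.5-fold. The log2 ratio was 0.04 for *Il7r* (interval -0.11 to 0.19), 0.04 for *Il2rg* (-0.04 to 0.12), -0.45 for *Il21r* (-0.61 to -0.29) and -0.36 for *Il2ra* (-0.72 to 0.01).

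Without a *Tcf7* UMI, *Il21r* (-0.73), *Il4ra* (-0.65) and *Cish* (-0.64) were called lower of 9 members, and none was called higher, beside 5.79% of 7715 genes higher and 4.43% lower. There *Il7r* was at 54.7 CPM in control and 37.8 CPM in CD8-IFNγRKO (log2 ratio -0.53, interval -0.61 to -0.46). This *Il7r* difference varied with depth, with 88.4 and 85.4 CPM below 4000 UMIs, 58.7 and 30.9 CPM at 4000 to 8000 UMIs (-0.93, past the limit) and 50.03 and 36.6 CPM at 8000 or more. The *Cish* ratio was -0.38 at 4000 to 8000 UMIs, within the limit. *Il2rg* was at 712 and 541 CPM (-0.40, -0.41 to -0.38). *Il2ra* was at 44.6 and 59.3 CPM (0.41, 0.34 to 0.48), so that its ratio had opposite signs in the *Tcf7* classes. The median of the members was -0.19 with and -0.40 without *Tcf7*, beside 0.03 and 0.02 over all genes. These comparisons share cells with that of the whole tumors, and the difference between the *Tcf7* classes was not tested.

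**Figure D5:**
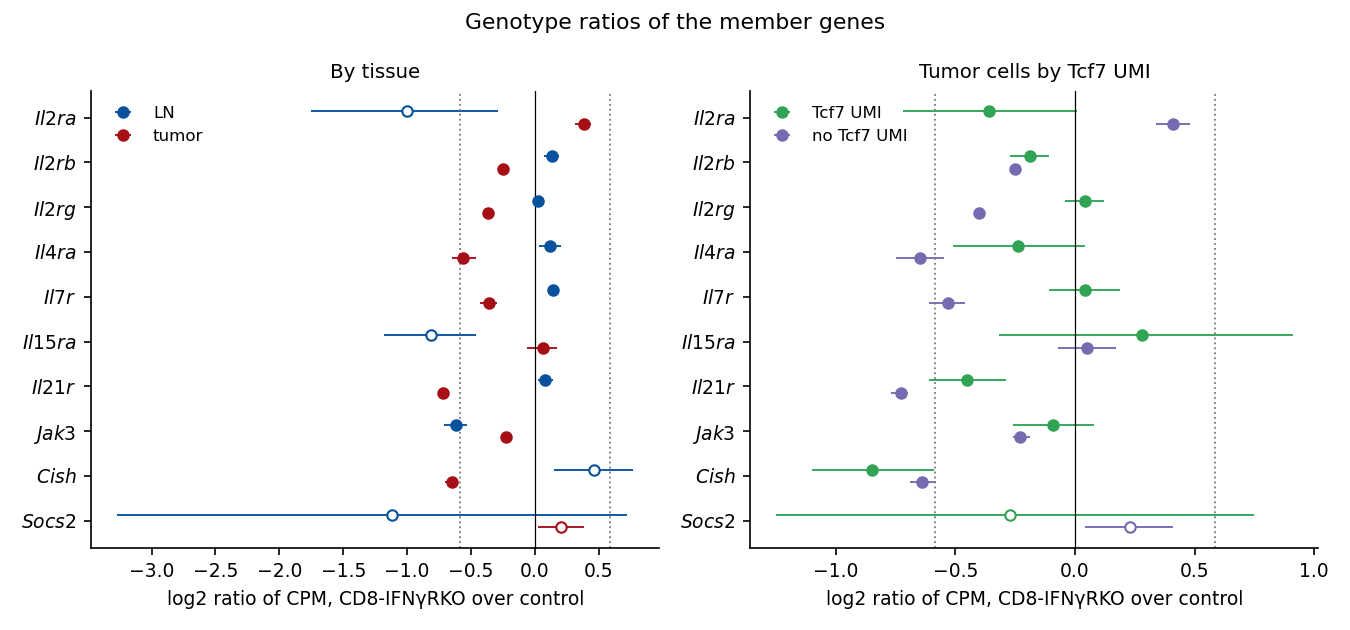
Log2 ratio of CPM, CD8-IFNγRKO over control, by tissue (left) and by *Tcf7* UMI within tumors (right), with exact 95% intervals, open circles for members below 10 CPM in both pools and dotted lines at 1.5-fold. *Jak3* in LN and *Il21r* and *Cish* in tumor lie beyond the left line, and *Il2rg* and *Il7r* are near 0 in *Tcf7* UMI cells and negative in the others.

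Tumor cells whose TCR was seen in 1 cell of the library carried more *Il7r* and *Il4ra*, and less *Il2rb* and *Cish*, than cells of larger clones. Before thinning, a clone could be read for 4284 of 7103 control and 5937 of 8636 CD8-IFNγRKO tumor cells, and the other cells are in neither class. After thinning, 179 control and 351 CD8-IFNγRKO cells were the only cell of their clone, and 4039 and 5528 belonged to clones of 2 or more. *Il7r* was at 353 CPM in single-cell and 55.1 CPM in larger clones of the control tumor, and at 379 and 41.8 CPM in the CD8-IFNγRKO tumor, so that single-cell clones were near the level of LN cells. *Il4ra* was at 129 and 28.0 CPM in control and 90.8 and 16.5 CPM in CD8-IFNγRKO. *Il2rb* was lower in single-cell clones (601 and 1193 CPM in control, 548 and 1003 CPM in CD8-IFNγRKO), as was *Cish* (55.9 and 120 CPM, 37.4 and 79.4 CPM). *Il2ra* had 4 UMIs in the single-cell clones of the control tumor and 1 in those of the CD8-IFNγRKO tumor, where the ratio of larger to single-cell clones was 26.7 with an interval of 4.76 to 1056.

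In LN, *Il2rb* was higher in cells with a *Ccl5* UMI. It was at 452 CPM in cells with a *Ccl5* UMI and 112 CPM in the rest of the control LN, and at 563 and 130 CPM in the CD8-IFNγRKO LN, 4.03-fold (interval 3.54 to 4.58) and 4.34-fold (3.84 to 4.89) higher. *Il7r* differed less, at 421 and 343 CPM in control and 495 and 376 CPM in CD8-IFNγRKO. LN cells with a *Ccl5* UMI thus carried more of both chains, whereas tumor cells with a *Ccl5* UMI carried more *Il2rb* and less *Il7r*. With and without the UMI, *Il2rb* was at 1160 and 832 CPM in control tumor and 999 and 842 CPM in CD8-IFNγRKO tumor. *Il7r* was at 68.9 and 142 CPM in control tumor and 53.2 and 99.2 CPM in CD8-IFNγRKO tumor. In tumors, cells with an *Mki67* UMI carried less *Il7r* than those without it, at 33.9 and 78.2 CPM in control and 40.8 and 70.7 CPM in CD8-IFNγRKO, while *Il2rb* was at 1117 and 1141 CPM in control and 965 and 956 CPM in CD8-IFNγRKO.

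A list of 26 further genes held ligands, *Il9r*, kinases, STATs, inhibitors, targets and regulators of *Il7r*. The 6 ligands, *Il9r* and *Osm* never reached 10 CPM, so 18 genes were counted outside LN and 17 in the LN genotype comparison. In tumor, 3 were higher and 10 lower than in LN in control, and 3 higher and 9 lower in CD8-IFNγRKO. Of all genes, 26.4% were higher and 22.8% lower in control, and 28.1% and 24.8% in CD8-IFNγRKO. *Stat3*, which IL-21 activates, was higher in tumor, at 126 and 491 CPM in control LN and tumor, and *Stat5a* (39.0 and 21.6 CPM) and *Stat5b* (72.4 and 41.1 CPM), which transmit IL-2, IL-7 and IL-15, were lower. *Bcl2*, a survival gene downstream of IL-7, was at 113 and 20.7 CPM, and *Foxo1*, an activator of *Il7r*, at 208 and 59.3 CPM. In control the other lower genes were *Jak1*, *Stat6*, *Socs3*, *Pim2*, *Myc* (208 and 42.7 CPM) and *Ccnd2*. All the lower genes of control were also lower in CD8-IFNγRKO, except *Stat5a*, which was not called there (38.4 and 25.7 CPM). In both genotypes the other higher genes were *Pim1*, a kinase induced by these cytokines, and *Gfi1*, a repressor of *Il7r*. *Pim1* was the only listed target that was higher, while *Bcl2*, *Pim2*, *Myc* and *Ccnd2* were lower.

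Within tumors, 5 of 18 were higher and 1 lower with a *Tcf7* UMI in control, and 8 higher and 0 lower in CD8-IFNγRKO. Of all genes, 6.07% were higher and 6.47% lower in control, and 8.65% and 7.61% in CD8-IFNγRKO. *Bcl2* was at 68.8 and 18.4 CPM with and without *Tcf7* in control and at 106 and 24.0 CPM in CD8-IFNγRKO. *Socs3*, a feedback inhibitor of STAT3 signaling, was at 155 and 41.2 CPM in control and 190 and 37.1 CPM in CD8-IFNγRKO. *Bcl2* and *Socs3* therefore stood with *Il7r* and *Il4ra*, and in control *Gfi1* was the gene lower with *Tcf7* (8.42 and 15.3 CPM).

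Between the genotypes, none of 17 was called in LN, where 0.187% of all genes were higher and 0.308% lower, beside 5.5% and 4.13% in tumor. In tumor 1 of 18 was called, *Myc*, a growth regulator, at 42.7 CPM in control and 94.98 CPM in CD8-IFNγRKO (log2 ratio 1.15, interval 1.09 to 1.22). It was also the gene called without a *Tcf7* UMI, and with a *Tcf7* UMI *Myc* (1.07), *Gfi1* (0.95) and *Bcl2* (0.62) were higher. *Bcl2* was at 68.8 CPM in control and 106 CPM in CD8-IFNγRKO *Tcf7* UMI cells, whose *Il7r* was nearly equal.

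Over the 8 pools made by splitting each of the 4 libraries by *Tcf7* UMI, the 3 genes most like *Il7r* in log2(CPM + 1) were *Satb1*, *Gm26740* and *Rasa3* (Pearson r 0.997 each, among 3756 genes), and among the members *Il4ra* (0.976). Those most like *Il2ra* were *Ttc39c* (0.997), *S100a4* and *Rgs16* (0.996 each), with *Il2rb* at 0.967. Those most like *Jak3* were *Gng2* (0.989), *Mapre2* (0.988) and *Ndufb10* (0.987). The pools fall into LN and tumor, so these values mostly describe that split, and no p-value applies to them.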

How the data were processed

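Reads were aligned by the authors with Cell Ranger multi 6.0.0 to the 10x mouse reference (mm10), and the files deposited hold unnormalized UMI counts for each gene in each barcode called a cell. The TCR files the authors deposited hold filtered contigs with their read and UMI counts. Following the study's filters, cells needed 200 to 6000 genes, mitochondrial UMIs of 3% or less, a leading gene of 20% of UMIs or less, and *Cd2*, *Cd8a* and *Cd8b1* each detected. The study's removal of a macrophage cluster was not repeated (13 control and 5 CD8-IFNγRKO tumor cells and 1 LN cell kept had 3 or more myeloid markers), and no doublet was removed.

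UMIs were summed per group of cells and divided by all UMIs (CPM). With 1 library of 3 pooled mice per group, no test or standard error was computed. Intervals (Poisson, conditional binomial, Clopper-Pearson) cover counting error only. Genes with 10 CPM in either pool were counted, and ratios past 1.5-fold were called. Pools with fewer than 3 UMIs of a gene were set to 3 UMIs, which touched no member in the 8 comparisons. Thinning drew 1600 UMIs per cell. Clones shared TCR alpha and beta chains. The members, the list of 26 genes and the splits were chosen with earlier results of these data known. All members are named, and other pathway genes only where past 1.5-fold. Protein sequences were not used here, and the split by 1 further gene is not reported here. Scripts ran in Python 3.11.15 with matplotlib 3.10.9, scipy 1.17.1, numpy 2.4.6 and pandas 2.3.3, and intervals were tested on simulated data.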

Additional observations from a re-analysis of the deposited data

Results flagged for a closer look

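Of the members, 6 stood on opposite sides of control in LN and tumor with counting intervals that leave out 0 in both. The share of all genes that did so was not counted, so the 6 cannot be read as a trait of the members. With many UMIs such intervals leave out 0 at small ratios, as for *Il21r* in LN (0.02 to 0.14, all-gene median 0.03). There was 1 library per group, so that the difference between the tissues was not tested. The log2 ratio of CD8-IFNγRKO over control was -1.0 in LN and 0.38 in tumor for *Il2ra*, 0.13 and -0.25 for *Il2rb*, and 0.12 and -0.56 for *Il4ra*. It was 0.14 and -0.36 for *Il7r*, 0.08 and -0.72 for *Il21r*, and 0.46 and -0.65 for *Cish*. The LN values of *Il2ra* and *Cish* come from genes below 10 CPM, with 25 and 200 UMIs in the CD8-IFNγRKO library. In LN the ratios of the 5 members other than *Il2ra* lie within 1.5-fold, and in tumor those of *Il21r* and *Cish* lie beyond it. The tumor ratios of *Il7r*, *Il4ra* and *Il2ra* came as near to 0 as -0.14, -0.16 and 0.11 in subsets of the cells.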

How the results depend on the processing

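The counts of called members between tumor and LN were 7 in each genotype and stayed within 1.5 times of that under all 14 alternatives. The call of *Jak3* in LN became 0 members with 10 CPM added (log2 ratio -0.55) or at 2-fold, and 4 members with no minimum of CPM. In tumor the 2 members lower in CD8-IFNγRKO became 1 with 10 CPM added, 1 in cells with 4000 to 8000 UMIs (*Cish* was lost in both) and 0 at 2-fold. In cells with a *Tcf7* UMI the 1 member became 0 at 2-fold and over every deposited barcode (*Cish* -0.54). It became 3 in thinned cells (*Cish*, *Il4ra* and *Il2ra*), where the counting intervals of *Cish* (-1.60 to 0.16) and *Il2ra* (-2.76 to 0.46) include 0. Without *Tcf7* the 3 became 1 with 10 CPM added (*Il21r*) and 0 at 2-fold. Among cells without *Tcf7* and with 4000 to 8000 UMIs, *Cish* was lost (-0.38) and *Il7r* was past the limit (-0.93). The 3 members called by *Tcf7* UMI in control tumor became 6 in cells with 4000 to 8000 UMIs and 7 in thinned cells. In CD8-IFNγRKO tumor the 3 became 6 in both of these, and 5 with the mean of CPM over cells, without *Mki67* UMI cells, or without the 8% of cells with most UMIs. The shares of all genes called under these alternatives are not given here, so these counts cannot be read as a trait of the members. No called ratio changed sign. Of 1000 ratios of single members under an alternative, 717 stayed within the counting interval and 283 moved beyond it. Ratios that were not called did change sign, such as *Il21r* between CD8-IFNγRKO tumor and LN (-0.23 to 0.10 in cells with 4000 to 8000 UMIs) and *Jak3* between genotypes in *Tcf7* UMI cells (-0.09 to 0.27 in thinned cells). With UMI totals that leave out TCR, heat shock, ribosomal and mitochondrial genes, the median of all genes between tumor and LN moved to -0.28 in control and -0.25 in CD8-IFNγRKO, and *Il2rg* was then at -0.38 and -0.75. No paired analysis was possible because each group has 1 library and no test was made. Depth limits *Socs2*, *Il15ra* and *Il2ra* most, with 4 to 186 UMIs per LN library.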

Other observations

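*Il2* itself, which activated T cells secrete, was found in few cells. In the control tumor 6 of 7103 cells had an *Il2* UMI, and 1 of them held 155 of the 160 UMIs, while in the CD8-IFNγRKO tumor 23 of 8636 cells held 86 UMIs, with 53 in 1 cell. The pooled *Il2* levels of 2.69 and 0.915 CPM in control and CD8-IFNγRKO tumor therefore rest on 1 cell each for most of their UMIs. *Il7* had no UMI in LN cells and 10 and 13 in tumor cells, and *Il4* and *Il9* had none in the 4 libraries.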
